A study of Hordeum vulgare with 6 samples.

Results

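*ACX2* (HORVU.MOREX.r3.7HG0658050, chromosome 7H), *LOX5* (HORVU.MOREX.r3.4HG0335790, chromosome 4H) and *LOX6* (HORVU.MOREX.r3.4HG0404940, chromosome 4H) are 3 genes the study named for jasmonic acid and listed as bound by HvMADS1 and altered in *mads1*, out of 26933 genes in the deposited table. They were taken by identifier. Because they had been picked for their difference between *mads1* and WT in these same libraries, that difference is given here as a description. No p-value is printed for it, and where the text says that a gene was past a threshold, this only describes the difference by which it was picked. RNA was sequenced from barley cv. Golden Promise under normal growth at Waddington stage W7.5, a point on a scale of inflorescence development. The 3 WT libraries carry an intact *HvMADS1*, and the 3 *mads1* libraries come from homozygous CRISPR-Cas9 knockouts with a premature stop codon in this E-class floral gene. Each library is a pool of lemma and awn from several plants by the methods, and of spikelet by the sample labels, which do not say which of the knockout lines was used. With bulk tissue, fewer cells of one type and less RNA per cell cannot be told apart.

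Jasmonates are lipid hormones. A lipoxygenase adds oxygen to linolenic acid in the plastid, allene oxide synthase and a cyclase turn the product into 12-oxophytodienoic acid, a reductase acts on it in the peroxisome, and acyl-CoA oxidases open each round of the β-oxidation that shortens its side chain to jasmonic acid. Jasmonates are known for their part in wound and pathogen defence, in stamen maturation in Arabidopsis, and in spikelet development in rice. The names of the genes rest on likeness to other plants. *LOX5* is annotated as lipoxygenase 1 in the study's target list, and *LOX6* as a PLAT/LH2 domain-containing lipoxygenase. In Arabidopsis, LOX6 belongs to the lipoxygenases that feed the jasmonate branch, whereas LOX1 and LOX5 oxygenate the fatty acid at another carbon, which leads to other oxylipins. Arabidopsis ACX2 acts on long-chain acyl-CoA in general β-oxidation, and other family members carry most of the jasmonate side-chain step there. Whether the barley proteins have these activities was not measured, nor was the hormone.

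The deposited values are FPKM, fragments scaled to transcript length and to library size, so levels can be set against each other between genes. The WT libraries summed to between 993575 and 994495 FPKM and those of *mads1* to less, between 939663 and 966119 FPKM. Low values showed no library far shallower than the others, with depths of 0.933 to 1.07 times that of WT replicate 3 by a coarse estimate that favours ratios near 1. *SHI* and *DL*, which mark awn and lemma in the in situ hybridization of the study, were at 57.5 to 63.4 and 80.6 to 96.5 FPKM in WT, and at 14.3 to 18.9 and 49.8 to 65.7 FPKM in *mads1*. *MADS2*, a class B gene of stamens and lodicules, was at 10.8 to 13.3 FPKM in WT and at 6.45 to 7.44 FPKM in *mads1*, and its part in the values below was not tested. The paper reports that HvMADS1 binds and activates *SHI* and *DL*. All of these markers are on its list of genes bound by HvMADS1 and altered in these libraries. Their lower values in *mads1* therefore do not measure how much of each tissue was sampled. Differences were fitted with limma over the 17996 genes that reached 1 FPKM in 3 or more libraries. To be called, a gene needed a Benjamini-Hochberg adjusted p under 0.05 together with a change of 1.5-fold or more. WT replicate 1 stood apart in one respect. It held the highest of the 3 WT values for 34.5% of the genes tested, but for 74.9% of the genes called lower in *mads1*. Fold changes of *ACX2*, *LOX5* and *LOX6* are therefore also given without it, and those of the related genes as a range.

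*LOX5* was the most abundant of the 3 transcripts. It was at 112, 95.5 and 102 FPKM across WT libraries, against 69.0, 68.4 and 52.9 FPKM in those of *mads1*. All *mads1* libraries were below the lowest WT library, and the gap between the groups was 26.5 FPKM. The mean of 63.4 ± 9.16 FPKM in *mads1* was 38.5% below the WT mean of 103 ± 8.5 FPKM (SD, n = 3 each). In WT its level was above that of 90.5% of the genes tested.

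*LOX6*, the other lipoxygenase gene, had the opposite direction. It was at 8.31, 8 and 7.58 FPKM across WT libraries, against 13.0, 13.8 and 12.5 FPKM in those of *mads1*. All 3 *mads1* values were above the highest WT value, by at least 4.18 FPKM. The mean went from 7.96 ± 0.366 to 13.1 ± 0.642 FPKM (SD, n = 3 each), a rise of 64.1%. Replicates of *LOX6* lay close together, with a coefficient of variation of 4.6% in WT and 4.91% in *mads1*, against medians of 8.49% and 10.4% over the genes tested.

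*ACX2*, the acyl-CoA oxidase gene, had the lowest level and the widest scatter. It was at 6.30, 4.71 and 3.73 FPKM across WT libraries, against 1.92, 2.63 and 2.83 FPKM in those of *mads1*. The groups did not overlap, but only 0.9 FPKM separated the lowest WT library from the highest *mads1* library. The mean of 2.46 ± 0.478 FPKM (SD, n = 3) in *mads1* was 49.9% below the WT mean of 4.91 ± 1.3 FPKM (SD, n = 3). The coefficient of variation of *ACX2* in WT, 26.4%, was above that of 89.8% of the genes tested. The plot of FPKM by library shows the narrow gap of *ACX2* beside the wide ones of both lipoxygenase genes.

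**Figure D1:**
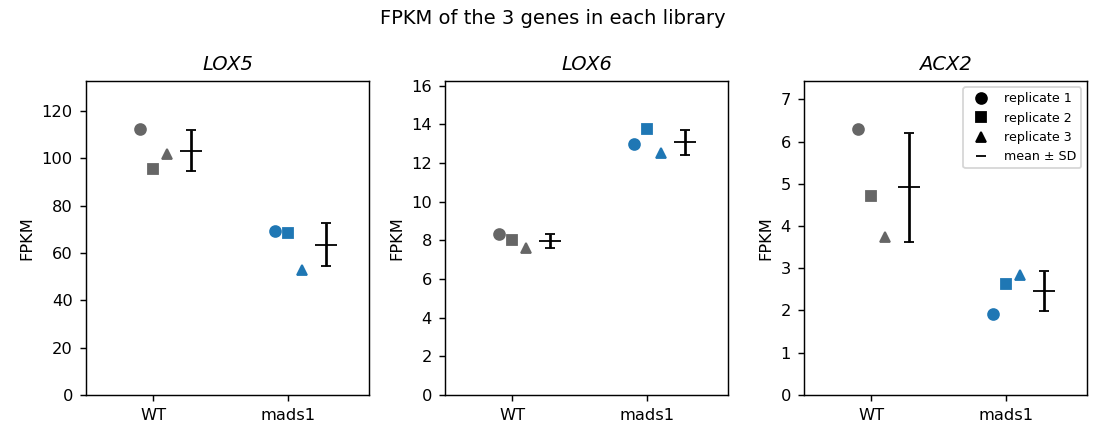
FPKM (y axis, from 0, with its own scale for each gene) of *LOX5*, *LOX6* and *ACX2* in the 3 WT and 3 *mads1* libraries. Symbols are single libraries by replicate number, and bars are the mean ± SD. *LOX5* and *ACX2* were lower and *LOX6* higher in each *mads1* library than in any WT library.

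On the scale of log2(FPKM + 1), with the fit of limma over all genes tested, the log2 fold change of *mads1* against WT was -0.76 for *ACX2* (standard error 0.19). It was -0.70 for *LOX5* (standard error 0.11) and 0.65 for *LOX6* (standard error 0.09). Adding 1 FPKM before taking logs understates the difference of a low gene such as *ACX2*, which was -0.96 with 0.1 FPKM added instead. All 3 genes were past the threshold on p and fold change, as were 21.1% of the genes tested, 6.6% higher and 14.5% lower in *mads1*. The groups did not overlap for any of the 3 genes, which held for 55.9% of all genes tested. Since the genes were picked for this difference, nothing is read from these counts.

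In size the differences were modest among changed genes. The absolute log2 fold change of *ACX2* was larger than that of 24.1% of the genes called, that of *LOX5* larger than 17.6% and that of *LOX6* larger than 10.5%. On the scale of log2(FPKM + 1), *LOX5* and *LOX6* lay near the limit of 0.58. The difference of *ACX2* is understated on that scale, as said above. Without WT replicate 1 the log2 fold changes were -0.60 for *ACX2*, -0.64 for *LOX5* and 0.68 for *LOX6*, all still past the threshold. *ACX2* missed the adjusted p without *mads1* replicate 1, at a log2 fold change of -0.64. *LOX5* fell just short of a 1.5-fold change when *mads1* replicate 3, its lowest library, was left out, at a log2 fold change of -0.58. The plot of fold changes by setting shows the same signs throughout.

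**Figure D2:**
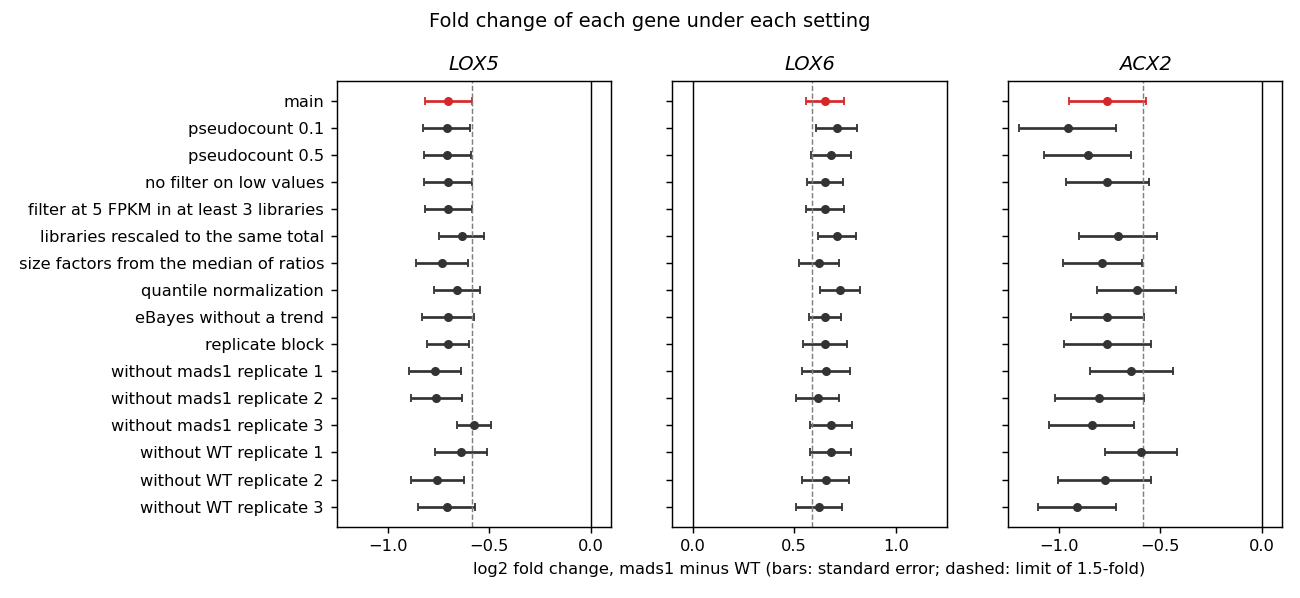
Log2 fold change of *mads1* against WT (x axis) of *LOX5*, *LOX6* and *ACX2* with its standard error (bars), in red for the settings used in the text (main) and in black for each alternative. Dashed lines mark the fold change limit of 1.5. *LOX5* crossed it without *mads1* replicate 3, and *ACX2*, at 3.73 to 6.30 FPKM in WT, did not enter the test with the filter at 5 FPKM.

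The opposite directions of both lipoxygenase genes changed their proportion. Both genes were picked for these differences, so the change in proportion restates them and is no further evidence. A ratio of 2 genes within a library does not depend on how that library was scaled. *LOX5* was at 13.5, 11.9 and 13.4 times the FPKM of *LOX6* in the WT libraries and at 5.33, 4.97 and 4.23 times in the *mads1* libraries. In *mads1*, *LOX5* was thus still the more abundant in each library, with a smaller lead than in any WT library. The share of *LOX6* in the sum of both was 7.18 ± 0.472% (SD, n = 3) in WT and 17.2 ± 1.7% (SD, n = 3) in *mads1*. The sum itself was lower in *mads1*, at 65.4 to 82.1 FPKM against 104 to 121 FPKM, since *LOX5* makes up most of it. On the log2(FPKM + 1) scale the difference of *LOX6* from *LOX5* moved by 1.35 between genotypes. With each replicate left out this was 1.26 to 1.42. Lipoxygenase genes other than these are not analysed here, so the sum is not that of the family.

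**Figure D3:**
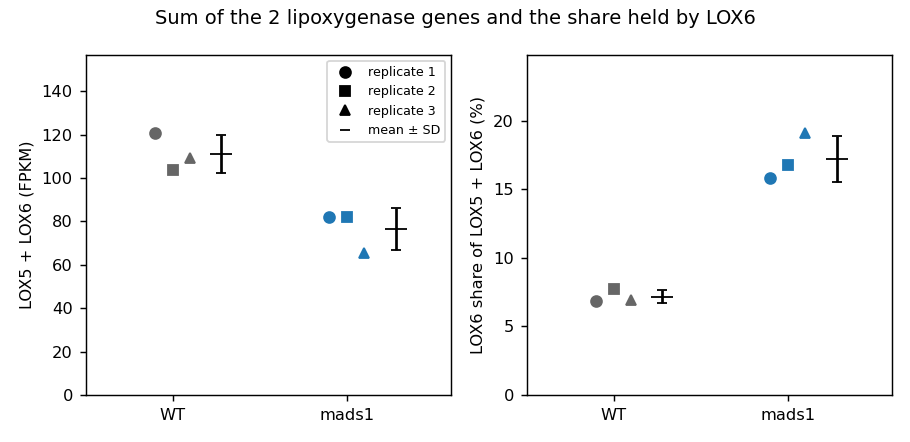
Sum of *LOX5* and *LOX6* in FPKM (left) and the percentage of that sum held by *LOX6* (right), in each WT and *mads1* library, with the mean ± SD. The sum was lower in the *mads1* libraries, and the *LOX6* share was 15.8% to 19.1% there against 6.89% to 7.73% in WT.

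A list of 5 genes for steps near these enzymes (supply of the fatty acid, the jasmonate branch and the peroxisome) was drawn up from the annotated targets of the study. The steps were assigned by annotation, and whether these genes supply or process jasmonate precursors in barley was not measured. All 5 were past the threshold and lower in *mads1*. Over all genes tested, 14.5% were called lower. The median log2 fold change of the list was -1.09, against 0.05 over all genes tested. The study had selected every one of them for its change in these libraries. Neither the count nor the median is therefore independent evidence of the direction. Among the 5, the gene annotated as fatty acyl-ACP thioesterases B passed the filter on low values through its WT libraries alone. The gene annotated as fatty acid desaturase 8 (HORVU.MOREX.r3.5HG0466020) makes the plastid linolenic acid from which jasmonates start in Arabidopsis. It was at 303, 298 and 306 FPKM across WT libraries, against 175, 184 and 148 FPKM in those of *mads1*. The WT libraries were tight and every *mads1* value lay far below them, a log2 fold change of -0.84 (standard error 0.09).

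A gene for a Phospholipase A2 family protein (HORVU.MOREX.r3.4HG0390450), a class of enzymes that release fatty acids from membrane lipids, had the largest fall of the list. It was at 34.7, 17.6 and 21.8 FPKM across WT libraries, against 3.46, 4.62 and 2.33 FPKM in those of *mads1*, with WT replicate 1 well above the other WT libraries. Its log2 fold change was -2.50 (standard error 0.26). The gene annotated as fatty acyl-ACP thioesterases B (HORVU.MOREX.r3.7HG0714350), which frees fatty acids made in the plastid, fell from 4.2 ± 1.85 to 0.73 ± 0.219 FPKM (SD, n = 3 each).

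The gene annotated as 12-oxophytodienoate reductase 2 (HORVU.MOREX.r3.7HG0664240) belongs to the family that reduces the jasmonate precursor, although another member does most of this in Arabidopsis. It was at 4.23, 2.32 and 1.85 FPKM across WT libraries, against 0.75, 1.47 and 0.40 FPKM in those of *mads1*. Levels were low and the groups were separated by only 0.38 FPKM. The gene annotated as peroxisomal NAD-malate dehydrogenase 2 (HORVU.MOREX.r3.5HG0513810), which in Arabidopsis restores the NAD that β-oxidation uses, fell from 45.4 ± 3.88 to 20.8 ± 0.75 FPKM (SD, n = 3 each). On the log2 scale this was -1.09 (standard error 0.08). *LOX6* was thus the one gene among these and the 3 named above with higher FPKM in *mads1*.

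A second list held 4 targets whose Arabidopsis namesakes are tied to the jasmonate response, of which 3 passed the filter on low values. These 3 were lower in *mads1* and past the threshold, as 14.5% of all genes tested were. Their median log2 fold change was -1.02, against 0.05 for all genes tested. They too had been selected by the study on these libraries, so nothing is read from their count or median. The gene of this list left out by the filter, a terpene synthase 21 gene on chromosome 5H, was higher in *mads1*. It was at 0.43 to 0.56 FPKM there, against 0 to 0.13 FPKM in WT. The terpene synthase 21 gene on chromosome 4H passed the filter through its WT values alone, so it could only count as lower. The gene annotated as overexpressor of cationic peroxidase 3 (HORVU.MOREX.r3.7HG0713870), a homeodomain protein that acts in jasmonate-dependent defence in Arabidopsis, was at 34.2, 31.5 and 29.9 FPKM in WT. In *mads1* it was at 14.2, 15.9 and 15.7 FPKM, about the same in each library and below all of WT. The gene annotated as ethylene responsive element binding factor 4 (HORVU.MOREX.r3.1HG0068710), a repressor in jasmonate and ethylene signalling in Arabidopsis, fell from 119 ± 7.44 to 72.7 ± 2.62 FPKM (SD, n = 3 each).

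Both genes annotated as terpene synthase 21, an enzyme of floral volatile terpenes in Arabidopsis, were low. The one on chromosome 4H (HORVU.MOREX.r3.4HG0408010) was listed at 4.25, 3.86 and 5.23 FPKM across WT libraries, against 0, 0.12 and 0 FPKM in those of *mads1*. The one on chromosome 5H (HORVU.MOREX.r3.5HG0422710), which did not pass the filter, was listed at 0, 0.13 and 0 FPKM across WT libraries, against 0.43, 0.48 and 0.56 FPKM in those of *mads1*. Of the 11 genes tested from both lists and the 3 named above, 9 had their highest WT value in WT replicate 1. Without that library, an alternative chosen after seeing the data, 3402 of the 17996 genes tested were called, 2380 of them lower in *mads1*. The 8 listed genes tested were selected by the study for their change, so nothing is read from their count. Of them, 7 were past the threshold. The exception was the gene annotated as 12-oxophytodienoate reductase 2, whose log2 fold change went from -1.01 to -0.76. That of the Phospholipase A2 gene went from -2.50 to -2.24 and that of the thioesterase gene from -1.54 to -1.26. Over the 8 genes the range without WT replicate 1 was -2.41 to -0.65.

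**Figure D4:**
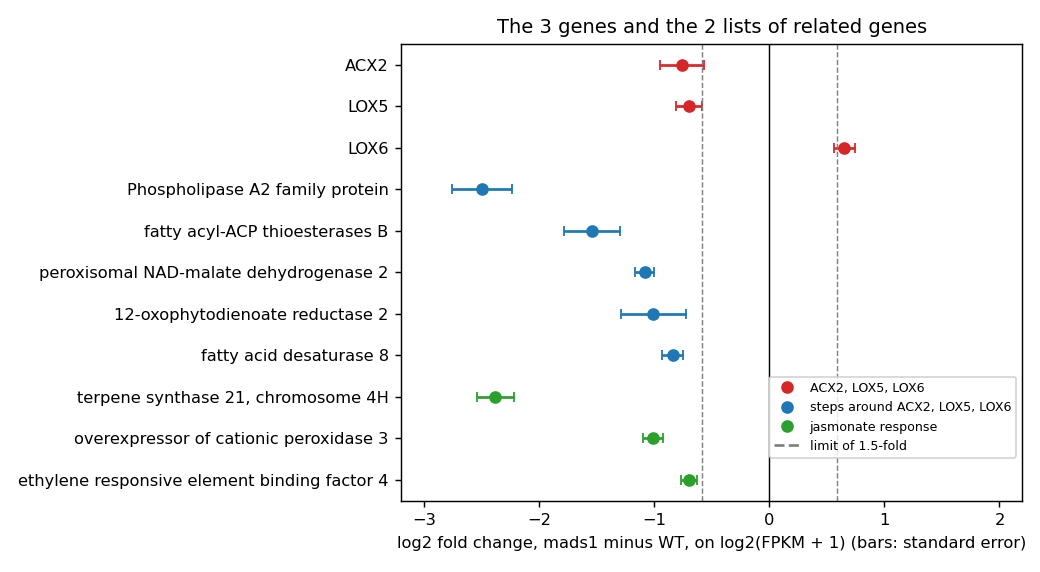
Log2 fold change of *mads1* against WT on log2(FPKM + 1), with its standard error, of *ACX2*, *LOX5* and *LOX6* (red), the genes of nearby steps (blue) and those tied to the jasmonate response (green). Dashed lines mark the limit of 1.5-fold. All genes shown but *LOX6* lie to the left of zero. The terpene synthase 21 gene of chromosome 5H, higher in *mads1*, did not pass the filter and is not shown.

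Patterns across the 6 libraries were compared by Pearson's correlation of log2(FPKM + 1), as a description. The points share 2 genotypes, so a gene with any difference between them scores high. Among the 538 other targets of the study that were tested, *LOX5* was most like HORVU.MOREX.r3.2HG0204350 (r = 0.999), for which no annotation is listed. Next came a homeobox-leucine zipper protein 4 gene (HORVU.MOREX.r3.7HG0648180, r = 0.998) and the gene annotated as plastoglobulin 34kD (HORVU.MOREX.r3.2HG0200280, r = 0.998). Each of these had its lowest value in *mads1* replicate 3 and its highest in WT replicate 1, as *LOX5* had. Such a shared order follows from choosing genes by correlation over these libraries and is no further finding. Homeobox-leucine zipper proteins are plant transcription factors, and plastoglobulins coat the lipid droplets of plastids. The homeobox-leucine zipper gene was at 98.8, 76.5 and 83.4 FPKM across WT libraries, against 46.5, 44.2 and 32.6 FPKM in those of *mads1*.

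Among the same targets, *ACX2* was most like genes annotated as an RNA-binding family protein (HORVU.MOREX.r3.2HG0205980, r = 0.984), a glucose-methanol-choline oxidoreductase (HORVU.MOREX.r3.3HG0254010, r = 0.979) and receptor kinase 3 (HORVU.MOREX.r3.2HG0207630, r = 0.970). All of them had WT replicate 1 highest and *mads1* replicate 1 lowest, as *ACX2* had, which again follows from how they were chosen. The oxidoreductase gene was at 31.2, 18.8 and 17.0 FPKM across WT libraries, against 7.94, 9.32 and 9.50 FPKM in those of *mads1*. Over all genes tested, 10 had a higher r with *ACX2* than the RNA-binding gene.

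Among the same targets, *LOX6* was most like the gene annotated as lysine decarboxylase family protein (HORVU.MOREX.r3.4HG0408000, r = 0.993), which the study calls *LOG6*, a family that activates cytokinins. It was at 5.51, 4.25 and 4.35 FPKM across WT libraries, against 11.3, 12.2 and 10.5 FPKM in those of *mads1*. Over all genes tested, 28 had a higher r with *LOX6* than *LOG6* had. A potassium transport 2/3 gene (HORVU.MOREX.r3.1HG0066800, r = 0.992) and an NB-ARC domain disease resistance gene (HORVU.MOREX.r3.7HG0636740, r = 0.992) came next among the annotated targets. The last of these was at 0.72, 0.36 and 0.49 FPKM across WT libraries, against 7.90, 9.16 and 8.28 FPKM in those of *mads1*, the largest log2 fold change, 2.64, of these 9 genes. Between the 3 genes themselves, r was 0.79 for *ACX2* with *LOX5*, -0.82 for *ACX2* with *LOX6* and -0.88 for *LOX5* with *LOX6*.

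Neighbouring genes were examined by identifier. Morex identifiers are numbered along each chromosome, and 5 listed genes on each side of each gene were taken. None of the 5 tested neighbours of *ACX2* was called, and their log2 fold changes were -0.26 to 0.23. Of 10 tested neighbours of *LOX5*, 2 were called, both lower in *mads1*. Of 6 tested neighbours of *LOX6*, 1 was called higher and 1 lower. Over all genes tested 21.1% were called, 6.6% higher and 14.5% lower, so nothing in these counts sets the neighbours apart. The one higher, HORVU.MOREX.r3.4HG0404920, was near the limit of the filter, with means of 0.513 FPKM in WT and 1.32 FPKM in *mads1*.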

How the data were processed

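The deposited table gives FPKM per gene and library. Per the labels and methods, the authors trimmed the reads with Trimmomatic, mapped them to the barley genome and estimated FPKM with RSEM 1.3.3; the aligner and build are not given in the sources used here. Identifiers are those of Morex version 3. Read counts were not analysed here, and the absolute depth is unknown. At most 2.4% of the values were equal between any pair of libraries.

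From these values log2(FPKM + 1) was computed. The 17996 genes that reached 1 FPKM in 3 or more libraries were tested by limma 3.58.1 (R 4.3.3; lmFit and eBayes, trend on) in 3 WT and 3 *mads1* libraries grouped by label, and p was adjusted over all of them. The code of the fit was run on simulated data with independent noise, shuffled gene spreads and far fewer changed genes. That run does not measure the error rate of the fit on these data. *HvMADS1* itself is not analysed here. Gene names and annotations are the study's, from its list of 605 targets, of which 541 were tested. Not every target on it carries an annotation.

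The genes, lists and alternatives were chosen with earlier results of these data known. The genes named are *ACX2*, *LOX5*, *LOX6*, both lists, 3 markers, and the 3 targets most correlated with each gene. The neighbour HORVU.MOREX.r3.4HG0404920 was named after its values were seen. Replicates are pools of separate plants. Alternatives were other pseudocounts, filters and scalings, no trend, a replicate block, the adjusted p alone and each library left out.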

Additional observations from a re-analysis of the deposited data

How the results depend on the processing

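No alternative run changed the sign of the fold change of *ACX2*, *LOX5* or *LOX6*. With each replicate left out, log2 fold changes were -0.91 to -0.60 for *ACX2*, -0.77 to -0.58 for *LOX5* and 0.62 to 0.68 for *LOX6*. In these runs 2 to 3 of the 3 genes were past the threshold, as were 3402 to 4158 of the 17996 genes tested. The 3 genes were picked for this difference, so nothing is read from their count. *ACX2* was lost without *mads1* replicate 1 and *LOX5* without *mads1* replicate 3. Under the other scalings of the libraries, all 3 stayed past the threshold. Over all genes tested, these scalings gave 1106 to 1568 genes called higher in *mads1* and 2328 to 2700 called lower. *ACX2* had too low a level for the filter at 5 FPKM, which left 2 genes called and 769 genes higher in *mads1* in place of 1187, since fewer genes were tested. With the adjusted p alone, 7779 genes passed, 3768 higher and 4011 lower, against 3794, 1187 and 2607.

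The replicate number as a block left 3781 genes called and all 3 genes past the threshold. Deviations of same-numbered libraries from their group means had correlations of -0.07, -0.28 and 0.20, which gave no sign of pairing by number. With 3 libraries in each genotype, such correlations cannot settle whether libraries shared a harvest or batch. Without counts, the limits of detection of low genes such as *ACX2* are unknown.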

Other observations

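*LOG6*, the annotated target closest in pattern to *LOX6*, and the terpene synthase 21 gene of chromosome 4H carry consecutive identifiers, HORVU.MOREX.r3.4HG0408000 and HORVU.MOREX.r3.4HG0408010, and had opposite directions. *LOG6* had a log2 fold change of 1.12, while the terpene synthase was listed at 3.86 to 5.23 FPKM in WT and at 0 to 0.12 FPKM in *mads1*. This pair was singled out after its values were seen, and both genes had been selected by the study for their change.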
